A study of Homo sapiens with 8 samples.

Results

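The ZNF genes that were well measured in BEAS-2B cells are 278 human genes whose GENCODE symbol is ZNF followed by a number, or by a number and a letter, and whose expected read count, summed over isoforms, averaged at least 200 across the 8 libraries. ZNF598 was left out by the same rule. They are 278 of 556 ZNF genes in the tables, which hold 58735 genes in all, of which 9826 reach the same count limit. Members were thus chosen by their level over all libraries, and the count limit itself used no comparison between libraries. Earlier results of these data were known when the members were chosen, so the choice was not blind to them. Mean expected counts of the members ran from 201.75 to 5654.38, with a median of 461.47. The members just inside the limit were ZNF493 at 201.75, ZNF799 at 202.55 and ZNF117 at 203.16, and the genes just outside it were ZNF132 at 199.62, ZNF577 at 199.56 and ZNF500 at 197.19. A further 30 of the 556 genes had no count in any library.

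BEAS-2B is an established line of human bronchial epithelial cells, grown here as 1 line at the air-liquid interface. Cultures received 1 ppm formaldehyde (FA) or clean air (CA) for 2 h and recovered for 6 h. Ribosomal RNA was removed, and each RNA pool was split into an input fraction (IN) and a fraction pulled down with an antibody against 8-oxo-7,8-dihydroguanosine (8-oxoG, the oxidised form of guanosine; IP), which gives the groups CA_IN, FA_IN, CA_IP and FA_IP with 2 libraries each, numbered 1 and 3 by the submitters. The antibody is clone 15A3 by the study's methods and one label field, while another label field names clone 2E2. There was no pull-down with a control antibody among the 8 libraries.

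Libraries held 16883500 to 45144392 expected counts, with the pull-down libraries at 16883500 to 23658012 and the inputs at 26152651 to 45144392. Replicates of a group correlated at r = 0.980 to 0.987 on the log2 CPM scale across 9826 genes, which are not independent of each other. All 7 bronchial epithelial markers were present, with KRT5 at 15035 to 37163 counts and KRT18 at 15940 to 27630, and the mesenchymal genes VIM and FN1 were as abundant. Markers of leukocytes (PTPRC), ciliated cells (FOXJ1), mucous cells (MUC5AC), club cells (SCGB1A1) and alveolar cells (SFTPC) did not exceed 7 counts in any library, while the endothelial marker PECAM1 was at 9 to 26 counts and the fibroblast gene COL1A1 at 159 to 361. In bulk RNA, fewer cells with a transcript and fewer copies per cell cannot be told apart.

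ZNF genes encode proteins in which a short zinc-binding unit, held together by a pair of cysteines and a pair of histidines, is repeated in tandem, and each unit can contact a few bases of DNA. Many also carry a Krüppel-associated box (KRAB), which recruits the co-repressor TRIM28 and through it the histone methyltransferase SETDB1, and these KRAB genes lie in large clusters on chromosome 19 and are known for silencing transposable elements. Other family members work at promoters, in chromatin complexes, on RNA, in ribosome assembly or in mitosis. 8-oxoG arises when guanine, the most easily oxidised base, reacts with oxidants, and the guanine share of each transcript is therefore given below.

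In GENCODE 44, 274 members are protein coding and 4 are transcribed pseudogenes. On chromosome 19 lie 121 members, of which 105 match a KRAB-like motif. Over all chromosomes, 174 members match that motif, 101 do not and 3 have no coding isoform to search. The search is strict, and a member without a match can still have the domain, as ZNF263 does. The coding isoforms hold a median of 11 finger motifs and at most 40, and ZNF185, ZNF286B and ZNF330 hold none in the isoform read.

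The repeats are visible in the sequences. The 20-base word found in the most members codes for the linker between adjacent fingers. It is shown as the most shared word, although most members lack it:
linker word: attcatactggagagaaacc
It occurred 175 times, in 52 of 275 members with a coding isoform, and in 8 of 13392 other coding genes tested. Its reverse complement was in none of these members. Below is the first complete finger repeat that lies within 1 exon, 84 coding bases starting at a cysteine codon, for 3 members that stood higher in the pull-down and 3 that stood lower (hg38, written 5′ to 3′ on the coding strand, guanines in capitals). They are shown because the pull-down values of the members followed their guanine share. They are examples from the members with the smallest p on each side and not a full list. ZNF37A is an exception, as its most abundant isoform holds 22.67% guanine against a median of 22.5% over members.
ZNF444, chr19:56159758-56159841, plus strand, exon 5 of 5, higher: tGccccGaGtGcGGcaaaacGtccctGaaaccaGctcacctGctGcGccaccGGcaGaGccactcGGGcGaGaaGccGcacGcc
ZNF787, chr19:56088887-56088970, minus strand, exon 3 of 3, higher: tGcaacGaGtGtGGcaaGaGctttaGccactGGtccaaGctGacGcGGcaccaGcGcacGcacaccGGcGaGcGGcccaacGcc
ZNF513, chr2:27378729-27378812, minus strand, exon 3 of 4, higher: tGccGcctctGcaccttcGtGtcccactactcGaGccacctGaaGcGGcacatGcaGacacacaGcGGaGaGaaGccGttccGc
ZNF37A, chr10:38117968-38118051, plus strand, exon 8 of 8, lower: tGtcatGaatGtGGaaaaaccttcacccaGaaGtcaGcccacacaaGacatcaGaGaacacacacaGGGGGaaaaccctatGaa
ZNF585A, chr19:37153338-37153421, minus strand, exon 6 of 6, lower: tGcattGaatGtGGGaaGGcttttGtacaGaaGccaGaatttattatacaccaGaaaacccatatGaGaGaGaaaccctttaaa
ZNF483, chr9:111542256-111542339, plus strand, exon 6 of 6, lower: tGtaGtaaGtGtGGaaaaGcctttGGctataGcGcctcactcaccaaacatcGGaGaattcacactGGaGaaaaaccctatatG
The repeats of ZNF444, ZNF787 and ZNF513 hold 24, 26 and 21 guanines, and those of ZNF37A, ZNF585A and ZNF483 hold 17, 17 and 18. Over the 243 members with such a repeat, the count ran from 8 to 32 guanines with a median of 19.

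Levels are given as CPM, counts scaled to a common library size after TMM normalisation, except where they are compared between genes, which was done per kilobase of effective length. Per kilobase, the most abundant member was ZNF207, which encodes BuGZ, a protein of the mitotic spindle and kinetochore, at a mean of 2701 expected counts per kb. ZNF146 followed at 1362, ZNF121 at 1111, ZNF622, a factor of large ribosomal subunit assembly, at 1043 and ZNF664 at 1037. ZNF207 also varied little, with 203 and 202 CPM in the clean air inputs, 206 and 199.9 in the formaldehyde inputs, 201 and 188 in the clean air pull-downs and 211 and 193 in the formaldehyde pull-downs. ZNF121 showed the pattern of most members, with 236 and 156 CPM in the clean air inputs, 168 and 145 in the formaldehyde inputs, 229.5 and 136 in the clean air pull-downs and 163 and 128 in the formaldehyde pull-downs. Its replicate 1 library was the higher one in each group.

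This split by replicate number ran through the family. Members made up 0.750% of all counts in replicate 1 and 0.566% in replicate 3 of CA_IN. The shares were 0.564 and 0.511% for FA_IN, 0.843 and 0.586% for CA_IP, and 0.657 and 0.527% for FA_IP. Replicate 1 held the larger share in every group. In all 4 groups, 211 of 278 members had a lower CPM in replicate 3 than in replicate 1, against 21.1% of the 18242 genes tested. The median member differed by -0.44 (log2, replicate 3 minus replicate 1) in CA_IN, by -0.23 in FA_IN, by -0.55 in CA_IP and by -0.31 in FA_IP, whereas the median of all genes tested differed by -0.02 to 0.00. Some cell type markers moved with the replicate number too. Of 7 epithelial markers, 4 were higher in replicate 3 in every group (KRT5, KRT18, KRT19 and TP63). The share of all genes with that pattern is not given. KRT8, CDH1 and EPCAM were lower in replicate 3 in CA_IN and higher in FA_IN. Summed epithelial levels (replicate 1, then 3) were 2384 and 2785 CPM for CA_IN and 2642 and 3145 for FA_IN. They were 2999 and 3799 for CA_IP, and 3152 and 4082 for FA_IP. In CA_IN, KRT5 alone was at 711 and 952 CPM. Of 3 mesenchymal genes, 2 were lower in replicate 3 in every group, against 21.1% of all genes tested. Their summed levels were 2064 and 1846 CPM for CA_IN, 2054 and 1807 for FA_IN, 2215 and 1967 for CA_IP, and 2073 and 1879.7 for FA_IP. FN1 was higher in replicate 3 in CA_IN and lower in CA_IP. The part of these markers in the ZNF values was not tested.

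**Figure D1:**
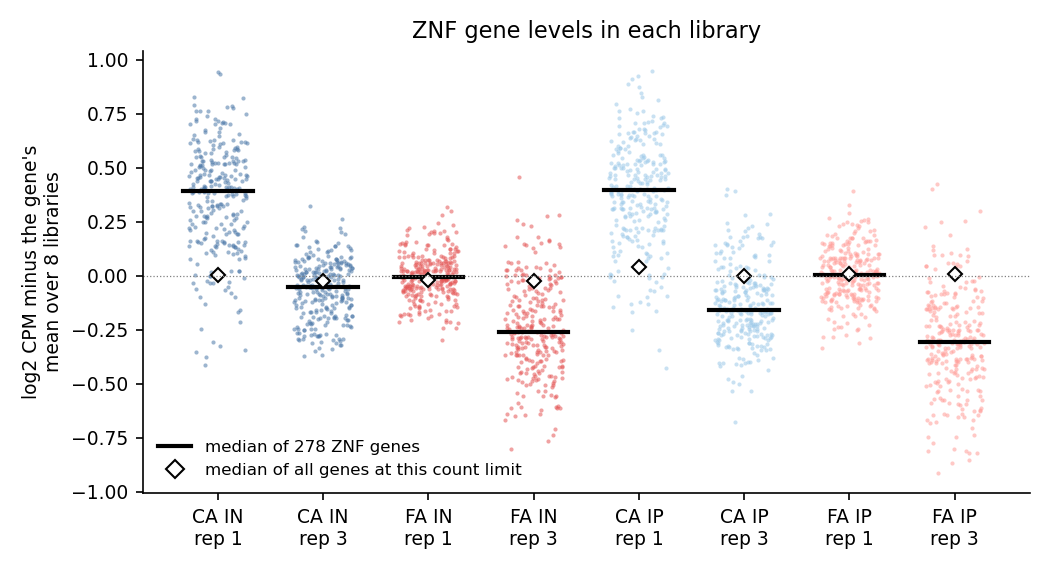
Each point is 1 of 278 ZNF genes, plotted as its log2 CPM in a library minus its own mean over the 8 libraries. Black bars are medians of the ZNF genes and diamonds medians of all 9826 genes at the same count limit. The ZNF medians run from 0.39 in CA_IN replicate 1 down to -0.26 in FA_IN replicate 3 among inputs and from 0.40 to -0.31 among pull-downs, while the diamonds stay between -0.03 and 0.04.

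The comparison of FA_IN with CA_IN asks whether formaldehyde altered the amount of these transcripts. As a family, the ZNF transcripts were less abundant in the formaldehyde inputs, with a median log2 fold change (log2FC) of -0.29 and 249 of 278 members below 0, against 46.5% of all genes tested. The median of all genes was 0.02. No single member passed an adjusted p of 0.05 in edgeR's quasi-likelihood test, in either direction (background 0% higher and 0.00548% lower). At an unadjusted p under 0.05, 9 members were lower and 0 higher, against 2.14% and 1.21% of all genes. DESeq2 on all 8 libraries also made 0 calls, with 24 members lower at an unadjusted p under 0.05, against 1.55% of all genes, and DESeq2 on the 4 input libraries made 0 calls with 64, against 2.43%. With the replicate number as a block, 30 members were lower and 0 higher at an adjusted p under 0.05 in edgeR, against 1.34% and 0.0767% of all genes, so the call depends on whether the number is taken as a term.

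The size of this difference has to be read beside the difference between replicates. Within replicate 1, the median member was -0.40 (FA_IN minus CA_IN, log2 CPM), with 248 of 278 below 0, and within replicate 3 it was -0.18, with 232 below 0. Both differences were below 0 for 217 members, against 28.5% of all genes tested, and both above 0 for 15. The spread between CA_IN libraries, a median of -0.44, was larger than either of these values. FA_IN replicate 1 lay close to CA_IN replicate 3, with a median difference of 0.05 and only 109 members below 0. Both FA_IN libraries lay below both CA_IN libraries for 91 members, or 32.7%, against 15.8% of all genes, and above both for 6, or 2.16%, against 18.1%. CA_IN replicate 1 was the highest of the 4 inputs for 240 members, against 29.8% of all genes. Without that library the median log2FC was -0.05, with 187 members below 0, and without CA_IN replicate 3 it was -0.52. The pull-downs, which come from the same RNA pools and are thus no separate evidence, differed by -0.39 between FA_IP and CA_IP in replicate 1 and by -0.16 in replicate 3. The summed epithelial markers given above were also higher in FA_IN than in CA_IN in both replicates, and the mesenchymal sum slightly lower. Single markers did not all follow the sums. Against CA_IN, CDH1 was lower in FA_IN replicate 1 (140 to 121 CPM), while the other epithelial markers were higher in both replicates. VIM was higher in replicate 1 (1035 to 1095) and CDH2 in replicate 3 (35.1 to 37.6), while FN1 was lower in both. The part of these markers in the ZNF values was not tested.

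The other zinc finger genes at the same count limit, 48 genes named ZBTB, ZSCAN, ZKSCAN or ZFP, had a median log2FC of -0.30 in input, with 46 of 48 below 0. Their values were close to those of the ZNF genes. Among members, the median was -0.35 for the 174 with a KRAB-like motif, with 165 below 0, and -0.17 for the 101 without, with 82 below 0. The median was -0.38 for the 121 members on chromosome 19 and -0.22 for the 157 elsewhere. By number of finger motifs it was -0.11 for the 63 members with 0 to 7, -0.33 for the 145 with 8 to 14 and -0.38 for the 67 with 15 or more. The KRAB-like members were also those that differed more between replicates, with a median of -0.51 between the CA_IN libraries against -0.29 for the others. These splits are descriptions, and the differences between them were not tested.

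The 6 members with the smallest p among those lower in FA_IN were ZNF74, ZNF227, ZNF286A, ZNF644, ZNF148 and ZNF57, all at an adjusted p of 0.945 (edgeR, quasi-likelihood). ZNF57, a KRAB gene on chromosome 19, had a CPM of 19.7 and 12.2 in CA_IN and of 10.6 and 7.87 in FA_IN (replicates 1 and 3), a log2FC of -0.79 (SE 0.34). ZNF74, a KRAB gene of the 22q11 region, had 9.95 and 7.62 in CA_IN and 6.45 and 5.18 in FA_IN, a log2FC of -0.60 (SE 0.22). In both, the 2 formaldehyde inputs lay below the 2 clean air inputs, by a small margin between FA_IN replicate 1 and CA_IN replicate 3.
ZNF227, also on chromosome 19, had 20.3 and 14.1 in CA_IN and 12.6 and 11.3 in FA_IN, a log2FC of -0.52 (SE 0.21). ZNF644, which partners the histone methyltransferases G9a and GLP, had 83.9 and 69.8 in CA_IN and 61.1 and 57.7 in FA_IN, a log2FC of -0.37 (SE 0.16). ZNF148, a factor that binds GC-rich promoters and is also called ZBP-89, had 57.2 and 47.6 in CA_IN and 43.1 and 38.9 in FA_IN, a log2FC of -0.35 (SE 0.15). The groups did not overlap in these genes either. ZNF286A had a log2FC of -0.40 (SE 0.17), but 63.8% of the 75-base words of its main isoform also occur in another annotated gene, so its count is uncertain.

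Members on the other side were few. ZNF300, a KRAB gene, had a CPM of 19.4 and 19.02 in CA_IN and of 23.2 and 22.5 in FA_IN, a log2FC of 0.25 (SE 0.12) at an adjusted p of 0.945 (edgeR). ZNF787 had 14.03 and 12.5 in CA_IN and 16.1 and 14.4 in FA_IN, a log2FC of 0.20 (SE 0.13). In both genes the formaldehyde inputs lay above the clean air inputs. ZNF608 (0.30, SE 0.21), ZNF76 (0.30, SE 0.24), ZNF511 (0.13, SE 0.11) and ZNF271P (0.14, SE 0.13) were the others with the smallest p. The values of ZNF608 and ZNF76 rested on single libraries. ZNF608 was at 0.0138 without CA_IN replicate 1 and at 0.64 without CA_IN replicate 3, and ZNF76 at 0.0073 without FA_IN replicate 3 and at 0.51 without FA_IN replicate 1.

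**Figure D2:**
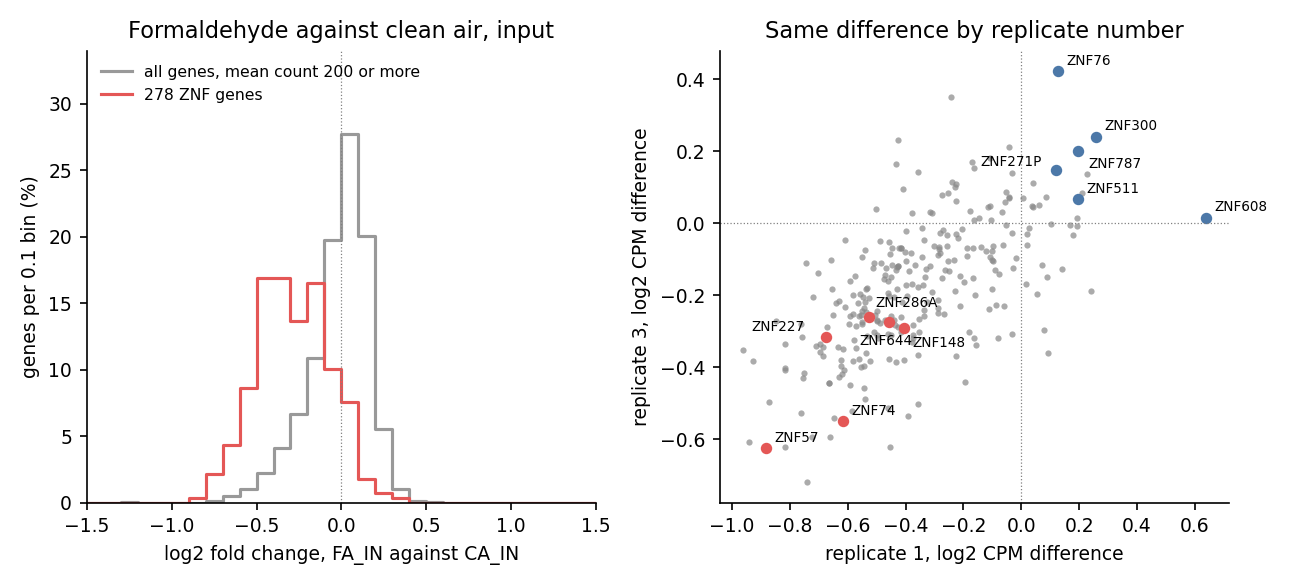
Left, the share of genes in each bin of 0.1 log2FC for FA_IN against CA_IN, for 278 ZNF genes (red) and all genes with a mean count of 200 or more (grey); the ZNF curve is shifted to the left, with its median at -0.29. Right, each ZNF gene as its log2 CPM difference, FA_IN minus CA_IN, in replicate 1 (horizontal) and replicate 3 (vertical), with the named lower (red) and higher (blue) genes; 217 genes lie below 0 on both axes.

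In input, 89.6% of all members and 94.8% of KRAB-like members had a log2FC below 0, and counts by role near these shares are not particular to a role. By known role, the KRAB genes studied on repeats and on ZNF genes themselves had input log2FC below 0 in 5 of 5. They were ZNF649 at -0.43 (SE 0.34), ZNF274, which brings SETDB1 to the ends of ZNF genes, at -0.19 (SE 0.23), ZNF587 at -0.19 (SE 0.17), ZNF417 at -0.18 (SE 0.20), and ZNF91, which silences SVA elements, at -0.18 (SE 0.18). ZNF417 and ZNF587 share 29.3% and 18.6% of their 75-base words, mostly with each other, so their counts are partly uncertain. Of 7 other DNA-binding regulators, all were below 0, from ZNF263, 48.7% of whose 75-base words also occur in another annotated gene, at -0.40 (SE 0.24), and ZNF281 at -0.38 (SE 0.22) to ZNF24 at -0.09 (SE 0.15). ZNF217, an amplified oncogene in breast cancer, was at -0.33 (SE 0.16), and ZNF410, known to hold up CHD4 expression, was at -0.10 (SE 0.14). Partners of chromatin complexes were below 0 in 4 of 5, led by ZNF644 and ZNF687 (-0.36, SE 0.24).
The promoter and looping factors ZNF143 and its paralogue ZNF76 were at 0.05 (SE 0.13) and 0.30 (SE 0.24), the latter with the dependence on single libraries given above. Among 9 members with roles on RNA, ribosomes, splicing, mitosis or SUMO, the median was -0.07 with 7 below 0, and ZNF207 (0.01, SE 0.08) and ZNF593 (0.01, SE 0.15) lay near 0. ZNF185, an actin-associated protein of epithelia, was at 0.04 (SE 0.24). None of these role members passed an adjusted p of 0.05 in edgeR. The 16 genes of the KRAB co-repressor machinery had a median input log2FC of 0.04, with 14 above 0 and none past an adjusted p of 0.05 in edgeR or an unadjusted p of 0.05. TRIM28 was at 0.03 (SE 0.12) and SETDB1 at 0.11 (SE 0.11).

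The comparison of pull-down with input asks which transcripts the 8-oxoG antibody recovered more or less than their share of the RNA. Over both treatments, the median member had a log2FC of -0.03, with 104 members above 0 and 174 below, against a median of 0.01 over all genes tested and 48.9% of genes below 0. All log2FC of members lay between -0.56 and 0.48, so no ZNF gene differed by as much as a doubling or a halving. With all 8 libraries as independent samples, 2 members passed an adjusted p of 0.05 in edgeR as higher and 0 as lower, against 2.15% and 3.04% of all genes. At an unadjusted p under 0.05 there were 6 higher and 6 lower, against 10.5% and 7.21%. DESeq2 called 2 higher and 1 lower, against 3.2% and 3.02%. All 4 pull-downs lay above all 4 inputs for 5 members and below them for 5, against 7.76% and 5.9% of all genes.

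Input and pull-down libraries of one number and treatment came from one RNA pool, and the large differences between pools described above are common to both. With the RNA pool as a block, 33 members were higher and 33 lower at an adjusted p under 0.05 (edgeR, quasi-likelihood), against 15.5% and 9.64% of all genes tested. The log2FC and SE given for single genes are those of the fit without a block. Pull-down minus input was above 0 in all 4 pools for 52 members and below 0 in all 4 for 66, against 23.3% and 17.5% of all genes. The median of members was 0.02 in CA pool 1, -0.10 in CA pool 3, 0.00 in FA pool 1 and -0.07 in FA pool 3. The number of member calls was smaller without a pool numbered 3. Shares of all genes in these fits are not given, so this is not shown to be particular to the members. Without CA pool 3 there were 8 higher and 7 lower, and without FA pool 3 there were 11 and 9, against 22 and 33 without CA pool 1 and 24 and 49 without FA pool 1.

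ZNF428 and ZNF511 passed both fits. ZNF428, a small, little studied protein with 1 finger motif (chromosome 19, 43607224 to 43619629 in hg38), had a CPM of 17.6, 16.1, 18.7 and 16.9 in the inputs CA replicates 1 and 3 and FA replicates 1 and 3, and of 21.9, 25.0, 26.8 and 23.3 in the pull-downs in the same order. Every pull-down lay above every input, and the log2FC was 0.48 (SE 0.10, edgeR adjusted p = 0.0229, or 6.6e-06 with the pool block). ZNF511 had 20.7, 20.4, 23.8 and 21.4 in the inputs and 24.9, 27.3, 30.8 and 29.2 in the pull-downs, a log2FC of 0.38 (SE 0.08, edgeR adjusted p = 0.0334). Here too the groups did not overlap, but 42.9% of the 75-base words of its main isoform are shared with the readthrough gene ZNF511-PRAP1, so the reads cannot be given to it with certainty. Without the block, leaving out any library but CA_IP replicate 1 took both genes above an adjusted p of 0.05.

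The other members with the smallest p on the higher side passed only with the pool block. ZNF444, a SCAN-domain factor whose finger repeat is printed above, had 6.45, 6.996, 7.65 and 6.13 CPM in the inputs and 9.26, 10.5, 9.29 and 8.50 in the pull-downs, a log2FC of 0.46 (SE 0.12, edgeR adjusted p = 0.0681, or 0.000205 with the block). ZNF787 had 14.03, 12.5, 16.1 and 14.4 in the inputs and 17.7, 19.2, 16.04 and 17.3 in the pull-downs, a log2FC of 0.30 (SE 0.10, edgeR adjusted p = 0.124, or 0.00246 with the block). ZNF513, linked to inherited retinal degeneration, had 8.80, 7.82, 8.19 and 6.88 in the inputs and 11.5, 10.1, 8.96 and 9.49 in the pull-downs, a log2FC of 0.34 (SE 0.11). ZNF444 and ZNF513 did not overlap between fractions, while in ZNF787 the FA pool 1 showed no enrichment. ZNF358 (0.34, SE 0.13, 18.3% of its 75-base words shared), ZNF133, a KRAB repressor (0.28, SE 0.13), and ZNF394 (0.17, SE 0.08) completed the group, each above 0 in all 4 pools.

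On the lower side, the member with the largest difference was ZNF585A, a KRAB gene with 21 finger motifs. It had 16.1, 11.0, 12.3 and 10.0 CPM in the inputs and 12.3, 6.17, 9.18 and 5.88 in the pull-downs, a log2FC of -0.56 (SE 0.24, edgeR adjusted p = 0.265, or 2.6e-05 with the block). The fractions overlapped between pools but not within any of them, and 18.5% of its words are shared, mostly with ZNF585B. ZNF706, which encodes a protein of only 228 coding bases, had 19.3, 18.9, 18.01 and 17.9 in the inputs and 15.9, 13.02, 15.4 and 12.4 in the pull-downs, a log2FC of -0.39 (SE 0.11, edgeR adjusted p = 0.0882, or 0.000224 with the block). ZNF280D had 15.5, 16.04, 14.4 and 16.6 in the inputs and 12.4, 12.4, 11.0 and 13.8 in the pull-downs, a log2FC of -0.33 (SE 0.11). In both of these genes each pull-down lay below each input.
ZNF37A, a KRAB gene, had 47.4, 41.0, 36.4 and 41.8 in the inputs and 41.7, 31.6, 31.0 and 33.9 in the pull-downs, a log2FC of -0.27 (SE 0.11). ZNF483 (-0.26, SE 0.11), the pseudogene ZNF271P (-0.23, SE 0.09) and ZNF518A (-0.23, SE 0.11), also passed with the block, whereas ZNF655 (-0.14, SE 0.06, edgeR adjusted p = 0.0512 with the block) did not.

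**Figure D3:**
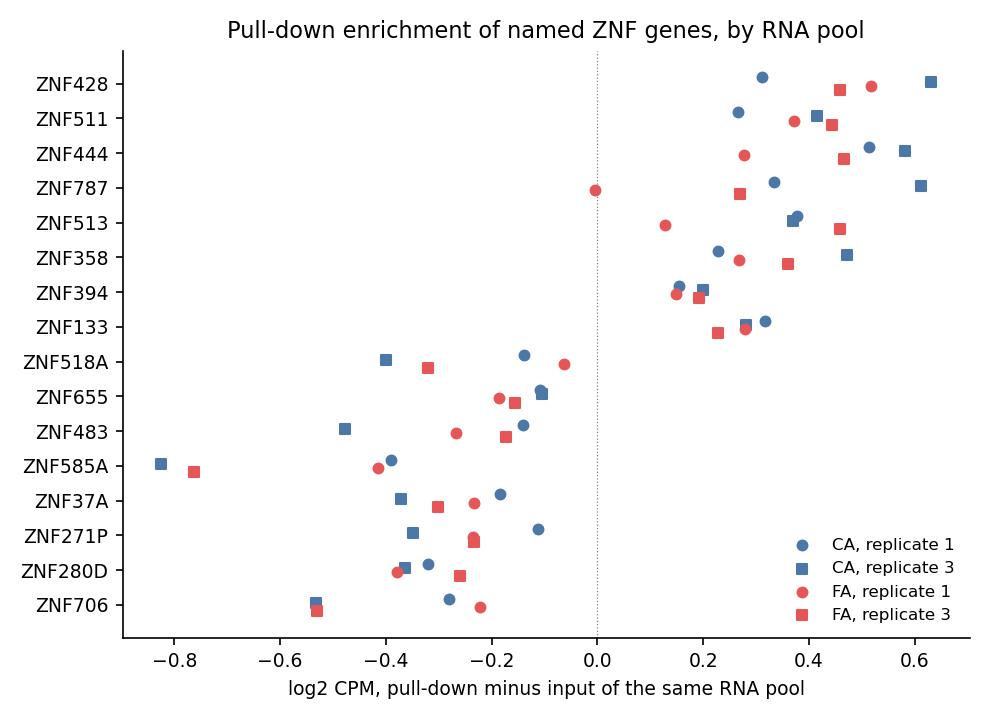
Log2 CPM of the pull-down minus that of the input from the same RNA pool, for the 8 ZNF genes with the smallest p on each side. Circles are replicate 1, squares replicate 3, blue clean air and red formaldehyde. Apart from ZNF787 in FA pool 1, which sits at -0.01, the 4 points of each gene lie on one side of 0.

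Guanine share ordered the members. Read from the most abundant isoform, it ran from 16.03 to 36.4% with a median of 22.5%, against a median of 24.5% over all genes at the same count limit. Its rank correlation with the pull-down log2FC was 0.74 over 278 members and 0.72 over 9815 genes, given as a description, since genes share libraries, base composition and length. GC share gave 0.73 over members, so guanine and cytosine cannot be told apart here. In the 93 members with the lowest guanine share, at most 21.2%, the median log2FC was -0.13, with 6 above 0, and 27 were lower and 0 higher with the pool block, where 29.98% of all genes in the same range were lower. In the 93 with the highest, at least 23.9%, it was 0.14, with 72 above 0, and 33 were higher and 0 lower, where 46.1% of all genes in the same range were higher. All genes in the same ranges of guanine share had medians of -0.11 and 0.15. The share of members called in both ranges was thus no larger than that of all genes in these ranges, members included. The lowest and highest ranges are open-ended, and guanine share was not matched within them. The highest took in 54.9% of all genes at the count limit. The median guanine share was 29.8% for the 33 members called higher and 19.6% for the 33 called lower. Transcript length moved the other way, with a rank correlation of -0.37 with the pull-down log2FC over members, and the called-lower members had a median main isoform of 6084 bases against 3055 for the called-higher ones.

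**Figure D4:**
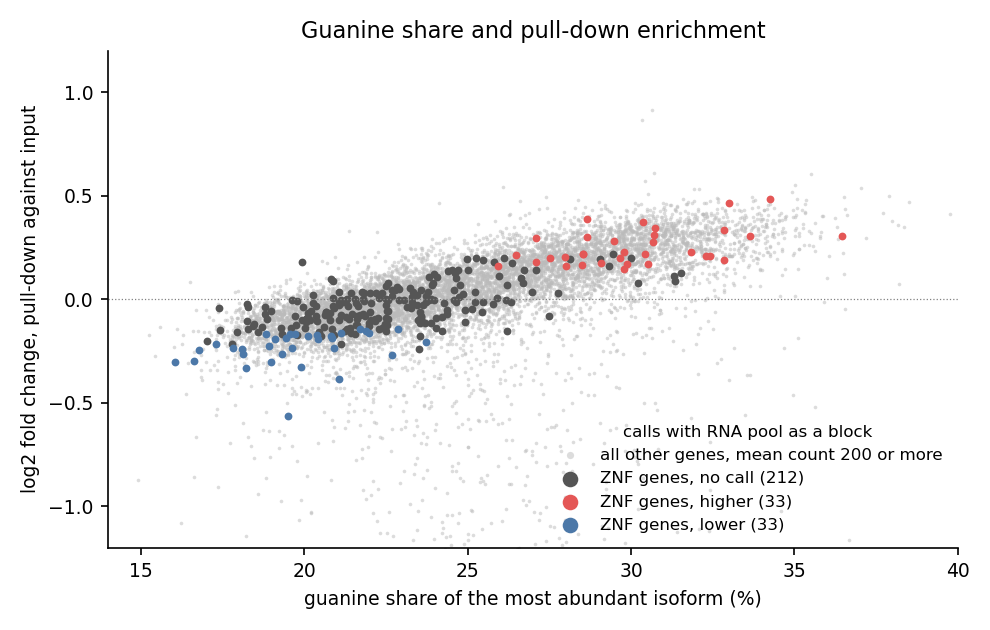
Pull-down against input log2FC over both treatments (vertical) by the guanine share of the most abundant isoform (horizontal). Grey points are other genes with a mean count of 200 or more, 121 genes lie outside the axes and none of them is a ZNF gene. ZNF genes are coloured by their call with the RNA pool as a block, 33 higher in red, 33 lower in blue and 212 without a call in dark grey, and they lie along the same band as the other genes.

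KRAB-like members had a median pull-down log2FC of -0.04, with 8 higher and 20 lower calls with the pool block among 174, and members without the motif a median of 0.00, with 25 and 12 among 101, where 15.5% of all genes were called higher and 9.64% lower. The former also had the lower guanine share, with a median of 21.97% against 23.9%. Among role groups, ZNF91 was lower (-0.24, SE 0.13, edgeR adjusted p = 0.00385 with the block) and ZNF335, a subunit of histone H3 methyltransferase complexes, higher (0.22, SE 0.11, 0.0173 with the block). ZNF622 (0.17, SE 0.17) and ZNF593 (0.21, SE 0.11), both of large ribosomal subunit assembly, were higher with the block. Lower with it were ZNF638 (-0.14, SE 0.07), ZNF326 (-0.17, SE 0.09) and ZNF106 (-0.14, SE 0.09), which act on RNA or its splicing. Over the 9 members of that role list, 4 lay above 0 and 5 below. ZNF346 and ZNF830, of the same list, were above 0 in all pools but FA pool 1. The log2FC and SE given here come from the fit without a block, so the SE is not the error behind the block calls. TRIM28 itself had a pull-down log2FC of 0.31 (SE 0.08, edgeR adjusted p = 0.0749, or 1.56e-05 with the block). The 16 co-repressor genes had a median of -0.02, with 3 higher and 3 lower with the block.

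Within each treatment, the pull-down comparison rests on 2 libraries against 2. In formaldehyde the median member had a log2FC of -0.04 and in clean air also of -0.04. No member passed an adjusted p of 0.05 in edgeR in either, with backgrounds of 0.0329% higher and 1.47% lower in formaldehyde and 0.148% and 1.77% in clean air. At an unadjusted p under 0.05 there were 2 higher and 1 lower in formaldehyde, against 4.31% and 4.79% of all genes, and 5 and 1 in clean air, against 7.56% and 5.01%. DESeq2 made 0 calls in both. The groups did not overlap, with the pull-downs higher, for 17 members in formaldehyde and 18 in clean air, against 18.9% and 22.9% of all genes, and with the pull-downs lower for 37 and 12, against 18.5% and 18.1%. Below 0 lay 165 members in formaldehyde, against 49.3% of all genes, and 158 in clean air, against 47.6%. With the pool block there were 3 higher and 8 lower in formaldehyde, against 5.45% and 4.6% of all genes, and 19 and 14 in clean air, against 11.6% and 5.85%.

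The interaction asked whether formaldehyde altered the pull-down enrichment, FA_IP against FA_IN compared with CA_IP against CA_IN. No member passed, with 0 at an adjusted and 0 at an unadjusted p under 0.05 in edgeR in either direction, where 0.521% of all genes were higher and 0.548% lower at the unadjusted limit, 0 calls in DESeq2 and 0 with the pool block, where 0.11% and 0.0274% of all genes were called. The median difference was -0.02 over members, with 153 below 0 against 55.4% of all genes, and -0.02 over all genes, and single members lay between -0.42 and 0.38. Those with the smallest p were ZNF787 (-0.34), ZNF609 (-0.24), ZNF512B (-0.27) and ZNF608 (-0.42). ZNF609, known for a circular RNA made from one of its exons, had 35.7, 37.6, 40.4 and 36.8 CPM in the inputs CA 1, CA 3, FA 1 and FA 3 and 37.5, 41.3, 35.1 and 35.3 in the pull-downs. Each pull-down lay above the input of its own pool in clean air and below it in formaldehyde, a difference that did not pass the test.

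Isoform number was read from the transcript tables. Members have 2094 annotated isoforms, with a median of 6 and at most 31 a gene, and 1056 of these had a mean expected count of 10 or more, with a median of 3 a gene. All genes at the same count limit had medians of 8 annotated and 4 at that count. The latter also depends on a gene's total count, on which members and all genes were not matched. A single isoform was found for 29 members, 2 to 4 for 168 and 5 or more for 81. The most abundant isoform held a median of 64.3% of a member's counts, against 73.0% over all genes, and under 50% in 72 members. RSEM shares reads between overlapping isoforms by an estimate, so isoform counts carry an error that the replicates do not fully show.

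ZNF410 had the most isoforms, 16 of 25 annotated, with ZNF410-201 at 47.8% of its counts and ZNF410-202 at 17.99%. ZNF638 had 12 of 27, but ZNF638-201 held 67.6%. ZNF655 also had 12, of 25, and its leading isoforms were ZNF655-207 at 23.6%, which has no defined coding sequence, and ZNF655-224 at 21.3%, a retained intron form, ahead of the coding ZNF655-202 at 11.7%. ZNF131 had 10 of 20, with ZNF131-214 and ZNF131-206 near each other at 26.3 and 24.3%, and ZNF544 had 10 of 20, led by ZNF544-208 at 27.4%. So a long list of isoforms went with an even split in ZNF655, ZNF131 and ZNF544 and with a dominant form in ZNF638. ZNF410 shares 88.6% of the words of its main isoform with another annotated gene and is uncertain. At the other end, ZNF770, ZNF622, ZNF629, ZNF367 and ZNF597 were the most abundant members with 1 isoform at that count.

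The number of isoforms in effect, the inverse of the summed squared isoform shares, had a median over members of 1.99 and 2.02 for CA_IN, 1.95 and 2.01 for FA_IN, 1.95 and 2.01 for CA_IP, and 1.995 and 2.01 for FA_IP. The mean was 1.99 ± 0.03 (SD, n = 4) in pull-downs and 1.99 ± 0.03 (SD, n = 4) in inputs, a difference within the spread between libraries (two-sided exact permutation test without pairing, p = 0.829, smallest possible without pairing 0.0286). FA_IN and CA_IN averaged 1.98 and 2.005 (exact permutation p = 0.667 with 2 against 2 libraries, where the smallest possible is 0.333). The share of the most abundant isoform was 64.8 ± 0.97% in pull-downs and 64.2 ± 0.58% in inputs (SD, n = 4 each, exact permutation p = 0.314). Both tests between fractions treated the libraries as independent. They ignored that input and pull-down of one number and treatment share an RNA pool, and a paired test was not run. By isoform number, the median pull-down log2FC was 0.06 for members with 1 isoform, -0.04 with 2 to 4 and -0.03 with 5 or more, and the median input log2FC was -0.34, -0.34 and -0.20.

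**Figure D5:**
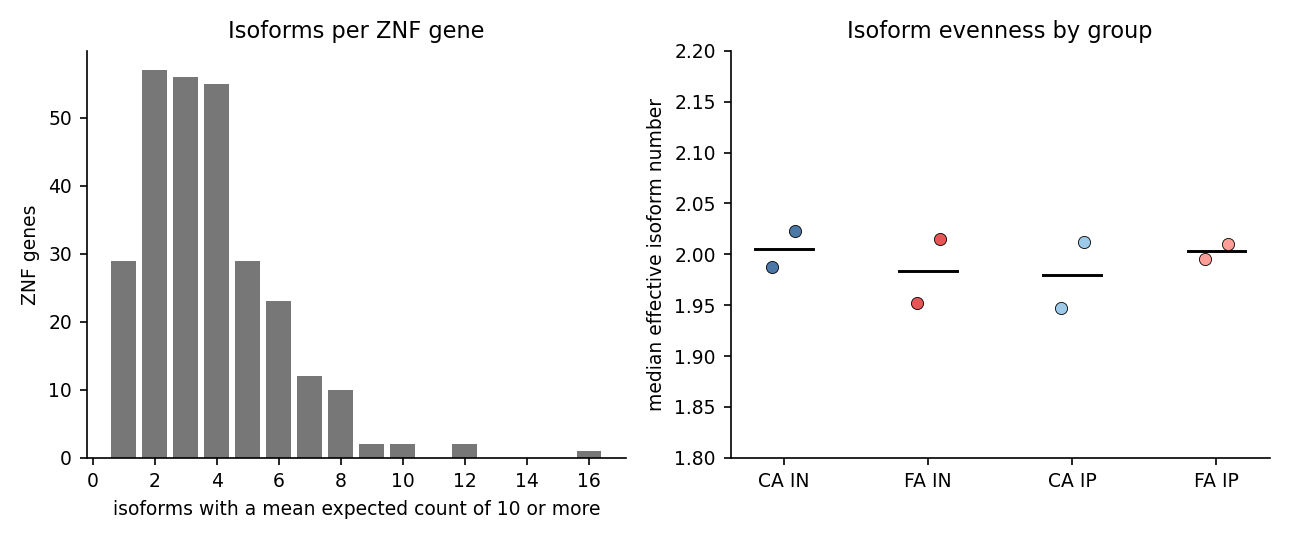
Left, number of ZNF genes by how many of their isoforms had a mean expected count of 10 or more, from 1 isoform in 29 genes to 16 in ZNF410. Right, the median effective isoform number over 278 ZNF genes in each library (points) with the group mean (bars); the axis starts at 1.8 and the 8 libraries lie between 1.95 and 2.02.

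Single transcripts were tested in the same way over 67873 transcripts, of which 1217 belong to members. Over both treatments 0 of them passed an adjusted p of 0.05 in edgeR, where 0.0663% of all transcripts were called higher and 0.516% lower. At an unadjusted p under 0.05 there were 27 higher and 41 lower, against 5.19% and 5.08% of all transcripts. DESeq2 called 4 higher and 13 lower, against 3.43% of all transcripts in either direction. In clean air 1 passed as lower, against 0.0147% of all transcripts higher and 0.227% lower, with 13 higher and 31 lower at the unadjusted limit, against 3.46% and 3.59%, and 8 calls in DESeq2, against 1.97%. It was ZNF331-212, named here because it was the only call, with 51.9 and 38.9 counts in CA_IN and 0 in both CA_IP libraries, at an edgeR adjusted p of 0.0494. RSEM listed it at 20.1 and 23.4 counts in FA_IP and at 13 and 16.04 in FA_IN, and it did not pass once pools were blocked. In formaldehyde 0 passed in edgeR, against 0.00737% of all transcripts higher and 0.137% lower, with 20 higher and 26 lower at the unadjusted limit, against 2.77% and 3.18%, and 6 calls in DESeq2, against 1.4%. For formaldehyde in input 0 passed in edgeR, with 5 higher and 31 lower at the unadjusted limit, against 1.3% and 1.49%, and 0 calls in DESeq2, against 0.166%. In the interaction 0 passed in edgeR, with 22 and 16 at the unadjusted limit, against 1.49% and 1.44%, and 4 calls in DESeq2, against 0.318%. ZNF512 had 1 isoform among the named lower and 1 among the named higher transcripts. ZNF512-202 had 421, 392, 240 and 329 counts in the inputs CA 1, CA 3, FA 1 and FA 3 and 98.0, 104, 103 and 166 in the pull-downs, a log2FC of -0.92 (SE 0.14, edgeR adjusted p = 0.0669), and ZNF512-201 had 521, 368, 278 and 462 in the inputs and 492, 349, 295 and 433 in the pull-downs, a log2FC of 0.59 (SE 0.13, edgeR adjusted p = 0.160). The raw counts of ZNF512-201 were similar in libraries of unequal depth, which after normalisation places the pull-downs higher. ZNF277-207 was at 0 in both FA_IN libraries and ZNF462-202 in both FA_IP libraries, and neither passed.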

How the data were processed

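RNA of 8 libraries (4 groups of 2) was analysed. The authors trimmed reads with cutadapt, aligned them with STAR 2.6.0a and estimated expected counts per isoform with RSEM 1.2.25, and the deposited tables hold these expected counts. They were summed by gene, rounded and joined to GENCODE 44. Groups came from the labels and replicate numbers (1 or 3) from the file names. Genes with at least 10 counts in at least 2 libraries (18242) were tested with edgeR 4.0.16 (TMM, quasi-likelihood, prior count 0.125, Benjamini-Hochberg, limit 0.05) on all 8 libraries without a block, and transcripts likewise. DESeq2 1.42.0 was an alternative. Differences within pairs used log2(CPM + 0.1). Input and pull-down of one treatment and number came from one RNA pool. Deviations of same-numbered libraries from their group means correlated at 0.446 to 0.782 across 9826 genes. The scripts were tested on simulated data. The labels call the replicates biological, and p-values measure only the spread between these samples. Depth of 16883500 to 45144392 counts limits precision by counting error. Shared 75-base words were counted in annotated transcripts. Named genes were those with the smallest p in each comparison and direction, the highest per kilobase, and those with the most isoforms or 1 isoform. Members and gene lists were chosen with earlier results of these data known. The authors' own fold changes and p-values were not used.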

Additional observations from a re-analysis of the deposited data

How the results depend on the processing

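With 2 libraries a group, 1 library could move a family median by more than the median itself, and only differences well above the spread between replicates could be called. For pull-down against input over both treatments, 2 members were higher and 0 lower without a block. DESeq2 gave 1 lower, library size in place of TMM 8 higher, no filter 1 higher and 3 lower, the effective length offset 1 and 2, the replicate block 16 and 10 (11.7% and 6.51% of all genes), and the RNA pool as a block 33 and 33. In formaldehyde, library size gave 2 higher, the replicate block 3 and 2 (2.01% and 3.21% of all genes), the pool block 3 and 8, and the length offset 1 lower. In clean air, library size gave 4 higher, the replicate block 7 and 3 (6.77% and 3.87%), the pool block 19 and 14, and the length offset 2 lower. Library size moved the medians to 0.13, 0.13 and 0.11, with the median of all genes at 0.16 over both treatments, and turned ZNF655 to 0.0199. For formaldehyde in input, no filter gave 4 lower and the replicate block 0 higher and 30 lower (0.0767% and 1.34% of all genes). Shares of all genes are not given for library size, no filter or the length offset, so those member counts have no background beside them. The labels do not say what the number marks. The paper lists several dated exposures, with clean air run in parallel, and calls the sequenced replicates R1 and R3. It does not state that the number marks the exposure date. Same-numbered inputs deviated together, at r = 0.561 across all genes and 0.713 across members, which with 2 pairs is a hint from the data and not a known pairing. In the interaction, the median was 0.0201 with a mean count of at least 50 and 0.0296 with the length offset. Of the values recomputed for these comparisons, 74 were counted as moved, including values from leaving out single libraries, and 276 as unchanged. Some could not be counted otherwise, as the isoform test in input cannot give a permutation p below 0.333. The 276 are thus not all results shown to be stable. A value counted as unchanged could still change sign. The median over both treatments was 0.0176 without FA_IN replicate 1, against -0.0343 in the main fit, and was counted as unchanged. The differences in effective isoform number given below also took both signs when single libraries were left out. The cause of the changes was not tested.

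Leaving out each library in turn, higher calls over both treatments ran from 0 to 2, with 0 lower, and the median from -0.21 to 0.0874. The median ran from -0.19 to 0.14 in formaldehyde, from -0.34 to 0.23 in clean air, from -0.52 to -0.0533 in input, and from -0.24 to 0.27 in the interaction. The difference in effective isoform number ran from -0.017 to 0.0115 between fractions and from -0.0527 to 0.0098 between treatments in input. With the pool block, both libraries of a pool were left out in turn, which was added after seeing the data. This gave 8 to 24 higher and 7 to 49 lower calls among members, without shares of all genes beside them. For transcripts, DESeq2 made 17 calls over both treatments, 6 in formaldehyde, 8 in clean air and 4 in the interaction. A mean count of at least 50 gave 2 over both treatments (2.15% of all transcripts) and 0 in clean air (0.927%), where both blocks also gave 0. Isoforms at a mean of 1 or more had a median of 5 a gene, and leaving out a library gave 3 to 4. Fits on 4 libraries do not exist for the comparison over both treatments or the interaction, nor a pool block for formaldehyde in input.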
